A study of Mus musculus with 12 samples.

Results

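The genes of 10 transcription factors that act in papilla and hair-type differentiation were followed through 4-nitroquinoline 1-oxide (4-NQO) tumorigenesis of the mouse tongue: Hoxc13, Foxn1, Dlx3, Msx1, Msx2, Gata3, Foxq1, Klf4, Grhl3 and Prdm1. They were chosen by gene symbol for their known roles, with earlier results of these data known. All 10 were found, each with 1 probe set, among the 24477 genes tested. Epithelial cells were laser-microdissected from tongue sections of 12 male CBA mice and measured on Mouse Gene ST 2.0 arrays of Affymetrix, with 1 array for each mouse. The 4 stages held 3 mice each. Normal mucosa came from untreated control mice aged 12, 20 and 24 weeks. Mice with hyperplasia (16, 20 and 20 weeks), dysplasia (16, 16 and 24 weeks) and tumors (16, 20 and 24 weeks) had drunk water with 100 ug/mL 4-NQO, a carcinogen that forms DNA adducts, over 8 weeks. No sample came from a treated mouse without a lesion, so the lesion and the treatment cannot be told apart. Values are log2 expression after quantile normalization and RMA, and a difference of 1 is a change by a factor of 2.

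The dorsal mouse tongue is covered by filiform papillae, cone-shaped projections whose keratinocytes make the same hard keratins as hair and nail. HOXC13 and FOXN1 switch on hard keratin genes in hair, and mice that lack Hoxc13 have defective hair, nails and filiform papillae. Homeodomain factors such as MSX2 and DLX3 act in hair shaft formation in mice, while KLF4, GRHL3 and PRDM1 act in the terminal differentiation and barrier of the epidermis.

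Dlx3 and Msx2 fell in tumors and in dysplasia, and the other 8 regulators did not pass the test in any comparison. RNA integrity was higher in every tumor than in every normal sample, although the paper found no significant difference in it among the stages. With it as a covariate neither gene was called in tumors (limma adjusted p = 0.127 for Dlx3 and 0.187 for Msx2). With this covariate neither was called in dysplasia (limma adjusted p = 0.0536 and 0.0784). Integrity and stage cannot be fully told apart between tumors and normal mucosa in that fit. Dlx3 was lower by 1.92 in tumors than in normal mucosa, a 3.79-fold difference, and Msx2 had a difference of -2.14, a 4.40-fold one. Hoxc13 and Foxn1 were lower in all 9 lesions than in all 3 normal samples without passing the test. Msx1, Gata3, Foxq1 and Klf4 overlapped between tumor and normal samples. Of 13 hard keratin genes measured beside them, 7 also fell in tumors, with Krt84 at -4.46, beside 1.23% of all genes called lower. Single hard keratin genes were not examined with RNA integrity as a covariate. In bulk samples, fewer cells of a type and less RNA per cell cannot be told apart.

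The promoters of the pair of related genes that behaved differently, Msx2 and Msx1, and of the hard keratins Krt34 and Krt84, which fell in tumors and had more matches than Krt36, the other called hard keratin with a promoter in the table, are shown first, because the core motifs of homeodomain, HOX13-type and FOXN1-type factors can be read in them. The letters are the 250 bases before the gene start, from RefSeq on GRCm38.p6, on the strand of the gene (minus in all 4). Capitals mark TAAT (homeodomain core, as for DLX3, MSX1 and MSX2), TTTAT (HOX13-type core) and GACGC (FOXN1-type core) on either strand, so ATTA, ATAAA and GCGTC also stand in capitals. TAAT and TTTAT can overlap, and ATAAA is also part of many TATA boxes.
Msx2 (chr13:53472781-53473030): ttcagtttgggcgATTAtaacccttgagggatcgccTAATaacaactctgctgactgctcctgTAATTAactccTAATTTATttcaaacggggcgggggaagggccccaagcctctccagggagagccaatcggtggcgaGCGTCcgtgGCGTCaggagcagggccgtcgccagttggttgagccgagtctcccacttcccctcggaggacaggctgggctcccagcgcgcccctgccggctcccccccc
Msx1 (chr5:37824586-37824835): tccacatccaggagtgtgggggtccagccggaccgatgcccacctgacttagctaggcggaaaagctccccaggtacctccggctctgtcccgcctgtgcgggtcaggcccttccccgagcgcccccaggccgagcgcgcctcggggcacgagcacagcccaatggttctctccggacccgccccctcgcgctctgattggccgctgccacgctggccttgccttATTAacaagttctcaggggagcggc
Krt34 (chr11:100041555-100041804): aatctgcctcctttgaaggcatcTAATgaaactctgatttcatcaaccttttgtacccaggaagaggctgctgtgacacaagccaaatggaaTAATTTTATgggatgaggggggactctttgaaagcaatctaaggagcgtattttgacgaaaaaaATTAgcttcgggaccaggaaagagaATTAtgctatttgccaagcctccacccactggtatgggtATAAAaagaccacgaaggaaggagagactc
Krt84 (chr15:101532821-101533070): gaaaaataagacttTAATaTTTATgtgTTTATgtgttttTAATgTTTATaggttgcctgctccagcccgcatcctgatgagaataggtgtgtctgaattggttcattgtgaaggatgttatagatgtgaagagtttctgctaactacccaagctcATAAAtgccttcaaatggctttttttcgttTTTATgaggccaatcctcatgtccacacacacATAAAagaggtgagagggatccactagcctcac

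The window searched was 300 bases, the 250 before the start and the 50 after it, and it held TAAT in 58.0%, TTTAT in 40.0% and GACGC in 27.2% of 32851 promoters. Msx2 had 5 TAAT, 1 TTTAT and 2 GACGC matches, where 6.86% of all promoters had at least 5 TAAT. Msx1 had 1 TAAT match and neither of the other motifs. Foxn1 had 2 TAAT matches, which overlap in the palindrome TAATTA, Klf4 had 1 TTTAT and 1 GACGC match, and Gata3 had 1 GACGC match. Grhl3 and Prdm1 had no match to any of the 3 motifs. Krt34 had 4 TAAT and 2 TTTAT matches, and Krt84 had 2 TAAT and 6 TTTAT matches, a number that 0.502% of promoters reached. Of the 13 hard keratins measured, 7 had a promoter in the table. Krt36, which also fell (-4.25), had 1 TAAT and 0 TTTAT matches. Krt82 had 2 TAAT and 4 TTTAT matches with a difference of 0.15 that was not called, and Krt32 had 4 and 3 with -1.02, not called either. The printed keratin promoters are rich in A and T, with 45.3% and 42.7% G and C against 61.0% in Msx2 and 70.0% in Msx1. Promoters of 7 of the 10 regulators were in the table used, and those of Hoxc13, Dlx3 and Foxq1 were not analysed here. A match shows only that the letters are present.

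The homeodomain genes Dlx3 and Msx2 were the regulators that passed the test. Dlx3, which acts in the hair matrix and shaft and in the differentiating epidermis, was at 9.94, 10.14 and 9.90 in normal mucosa, 8.75, 9.25 and 9.14 in hyperplasia, 9.05, 8.31 and 7.99 in dysplasia and 7.81, 8.20 and 8.20 in tumors. Every lesion lay below every normal sample, and dysplasia 1 stood with the hyperplasia samples. The stage means were 9.99 ± 0.13 for normal mucosa (SD, n = 3 at each stage), 9.05 ± 0.26 in hyperplasia, 8.45 ± 0.55 in dysplasia and 8.07 ± 0.23 in tumors. The difference between tumors and normal mucosa was -1.92 (standard error 0.26, 95% interval -2.49 to -1.36, limma adjusted p = 0.00588), and 0.788% of all genes had a lower one. Dysplasia differed from normal mucosa by -1.54 (standard error 0.26, limma adjusted p = 0.0212), a call that was lost without normal 1, normal 2, dysplasia 2 or dysplasia 3 (limma adjusted p = 0.072 to 0.0941). Both calls were lost with RNA integrity as a covariate. No difference between neighbouring stages passed the test after adjustment over all genes. Between hyperplasia and normal mucosa it was -0.95 (95% interval -1.51 to -0.38, limma adjusted p = 0.258). Between dysplasia and hyperplasia it was -0.59 (95% interval -1.16 to -0.03, limma adjusted p = 1.0). Between tumors and dysplasia it was -0.38 (95% interval -0.95 to 0.19, limma adjusted p = 0.834).

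Msx2, which maintains the hair shaft programme in mice, was at 6.83, 7.12 and 7.42 in normal mucosa, 5.53, 7.18 and 5.85 in hyperplasia, 4.79, 5.21 and 5.48 in dysplasia and 4.83, 5.16 and 4.97 in tumors. Hyperplasia 2 lay within the normal range, and the other 8 lesions lay below it. All dysplasia and tumor samples were below all hyperplasia samples. Tumors differed from normal mucosa by -2.14 (standard error 0.36, 95% interval -2.92 to -1.36, limma adjusted p = 0.0129), and dysplasia by -1.96 (standard error 0.36, limma adjusted p = 0.0297). The call in tumors was lost without normal 2 or without tumor 1, with limma adjusted p = 0.0513 and 0.0553. The call in dysplasia was lost without any 1 of the 3 normal or 3 dysplasia samples (limma adjusted p = 0.0602 to 0.101). Both were also lost with RNA integrity as a covariate. The step between dysplasia and hyperplasia was -1.03 (limma adjusted p = 1.0), and tumors and dysplasia differed by -0.17 (limma adjusted p = 0.949). In tumors Msx2 stood between the 22.0 and 28.0 percentiles of all probe sets of the array, so that its values there lie in the dimmer part of the signal. Its relative Msx1, which acts in tooth and palate development, showed no such pattern: it was at 7.27, 7.14 and 6.72 in normal mucosa and at 6.79, 6.86 and 7.04 in tumors, and all 12 samples lay between 6.72 and 7.32. The interval of its tumor minus normal difference, -0.58 to 0.29, leaves out a fall of the size seen for Msx2.

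**Figure D1:**
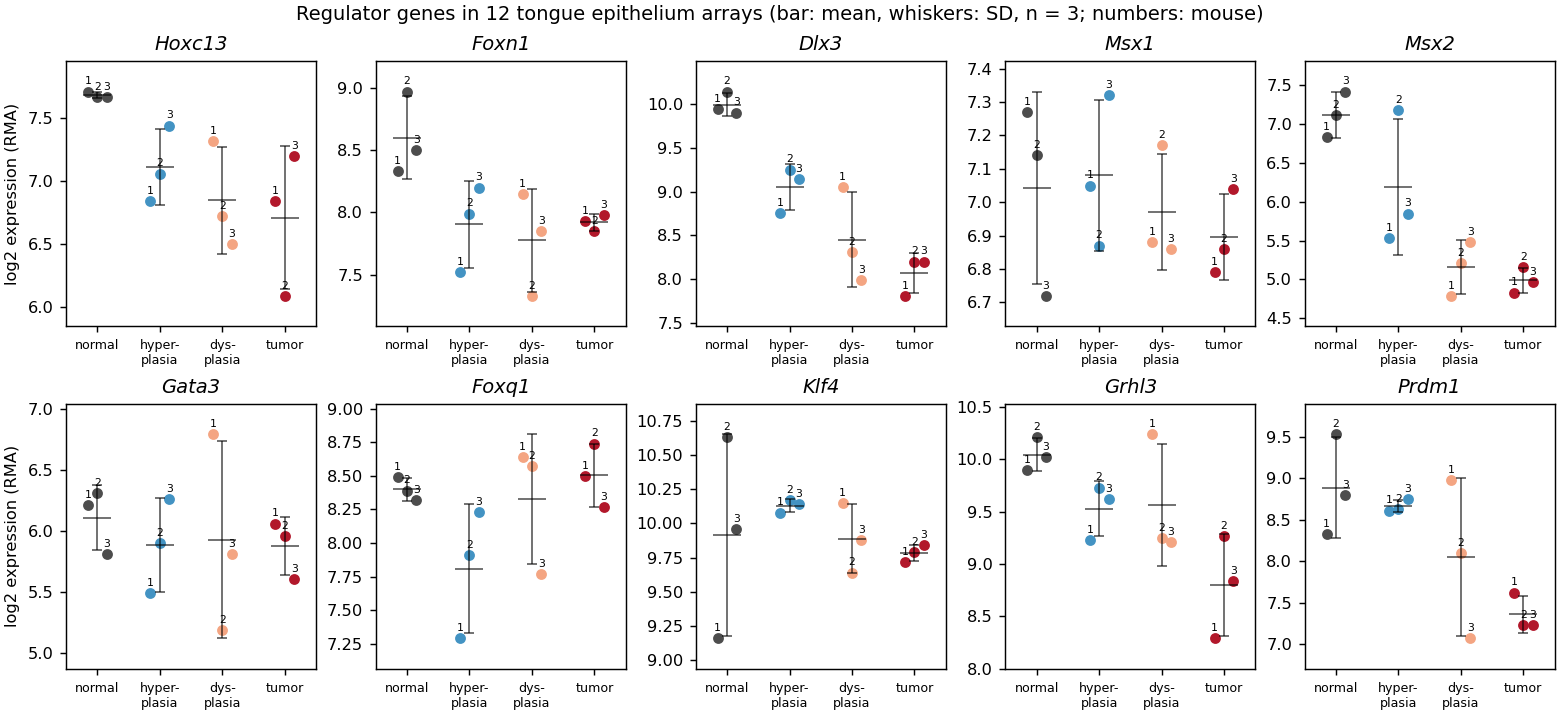
Log2 expression (vertical axis, a separate range in each panel) of the 10 regulators in each of 12 mice, by stage (horizontal axis). Points are mice, with their number in the group above, and bars and whiskers show the mean and SD of 3 mice. Dlx3 lies between 9.90 and 10.14 in normal mucosa with every lesion below, Msx2 falls to between 4.83 and 5.16 in tumors, and Msx1, Gata3, Foxq1 and Klf4 overlap between tumor and normal samples.

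Hoxc13 and Foxn1, the regulators known for hard keratin genes, were lower in lesions by less. Hoxc13 was at 7.71, 7.67 and 7.67 in normal mucosa, 6.84, 7.06 and 7.44 in hyperplasia, 7.32, 6.72 and 6.50 in dysplasia and 6.84, 6.09 and 7.20 in tumors. The SD was 0.02 in normal mucosa and 0.57 in tumors (n = 3 each), and the highest lesion, hyperplasia 3, was still below the lowest normal sample. The difference was -0.97 in tumors (standard error 0.29, 95% interval -1.61 to -0.34, limma adjusted p = 0.112) and -0.79 over all lesions (limma adjusted p = 0.121). Foxn1, the gene mutated in nude mice, was at 8.33, 8.97 and 8.50 in normal mucosa, 7.52, 7.99 and 8.20 in hyperplasia, 8.15, 7.33 and 7.85 in dysplasia and 7.93, 7.85 and 7.98 in tumors. Its gap between the groups was narrow, 8.20 in the highest lesion and 8.33 in the lowest normal sample. Its difference was nearly the same at each stage, -0.69 in hyperplasia, -0.82 in dysplasia and -0.68 in tumors, and -0.73 over all lesions (standard error 0.21, limma adjusted p = 0.0993).

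Grhl3 and Prdm1, factors of terminal differentiation, had large differences in tumors that did not pass the test. Prdm1, which encodes BLIMP1 and is also known from plasma cells, was at 8.33, 9.53 and 8.80 in normal mucosa, 8.61, 8.63 and 8.75 in hyperplasia, 8.98, 8.10 and 7.07 in dysplasia and 7.62, 7.23 and 7.23 in tumors. Hyperplasia lay inside the normal range, dysplasia was spread widely, and all tumors were below all normal samples (difference -1.53, standard error 0.41, limma adjusted p = 0.0784). Grhl3, which acts in epidermal barrier formation, was at 9.90, 10.21 and 10.02 in normal mucosa, 9.23, 9.73 and 9.62 in hyperplasia, 10.24, 9.25 and 9.21 in dysplasia and 8.29, 9.27 and 8.84 in tumors. Dysplasia 1 was the highest of all samples for Grhl3, and all tumors were below all normal samples (difference -1.24, standard error 0.31, limma adjusted p = 0.0614). Their adjusted p moved to both sides of the threshold. With RNA integrity as a covariate the limma adjusted p was 0.44 for Grhl3 and 0.432 for Prdm1. With 1 sample left out it reached 0.188 and 0.196. Without dysplasia 1 both passed the test in tumors (limma adjusted p = 0.022 for Grhl3 and 0.0275 for Prdm1). Grhl3 also passed it under 4 other settings (limma adjusted p = 0.0407 to 0.0499), and Prdm1 without dysplasia 3 (limma adjusted p = 0.0372) and without normal 1 and dysplasia 1 (limma adjusted p = 0.0315).

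Klf4, Foxq1 and Gata3 overlapped between tumors and normal mucosa. Klf4, a factor of the epidermal barrier, varied most in normal mucosa, with 9.16, 10.63 and 9.96, and lay between 9.72 and 9.84 in tumors (difference -0.13, 95% interval -0.77 to 0.51, limma adjusted p = 0.864). Foxq1, which is mutated in satin mice with abnormal hair, was at 8.49, 8.39 and 8.32 in normal mucosa and at 7.29, 7.91 and 8.23 in hyperplasia, all below normal. In tumors it lay on both sides of the normal range, with 8.50, 8.74 and 8.27 (difference 0.11, limma adjusted p = 0.888), and its difference in hyperplasia was -0.59 (limma adjusted p = 0.533). Gata3, which acts in the inner root sheath of hair and in T cells, was between 5.81 and 6.31 in normal mucosa and between 5.61 and 6.06 in tumors, with its highest value, 6.79, in dysplasia 1. That sample also had the highest mean of 11 T and NK cell genes, 7.38, against 6.36 and 6.21 in the other dysplasia samples, 5.57 to 5.59 in tumors and 5.49 to 5.58 in normal mucosa. The part of these cells in the Gata3 value was not tested.

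Of the 10 regulators, 2 were lower and none higher in tumors, beside 1.23% of all genes called lower there. In dysplasia the same 2 were lower, beside 0.503% of all genes. In hyperplasia none of the 10 passed the test, beside 0.0654% of all genes in either direction, and 3 of the 10 had an unadjusted p under 0.05, as did 9.76% of all genes. Over the 3 lesion stages against normal mucosa, Dlx3 (difference -1.47, limma adjusted p = 0.00624) and Msx2 (difference -1.68, limma adjusted p = 0.0137) were lower, beside 1.23% of all genes. This call of Msx2 was lost without any 1 of the normal samples (limma adjusted p = 0.0589 to 0.0685). The test for any difference among the 4 stages called Dlx3 (limma adjusted p = 0.0266) and Msx2 (limma adjusted p = 0.0409), beside 0.646% of all genes. No regulator was called between dysplasia and hyperplasia, where limma called 0 genes (0.0%) and 2 of the 10 had an unadjusted p under 0.05 (4.54% of all genes), or between tumors and dysplasia, where it called 1 gene (0.00409%) and 1 of the 10 had one (6.34% of all genes). In 6 of the 10, all 3 tumors lay below all 3 normal samples, a pattern of 13.0% of all genes, and in 3 of the 10 all 9 lesions did, a pattern of 2.89%. Differences below -1 in tumors were found for 4 of the 10 and for 3.09% of all genes. The median difference of the 10 in tumors was -0.82, and that of all genes was -0.05. Since the 10 genes were chosen with earlier results of these data known, these shares are descriptions.

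**Figure D2:**
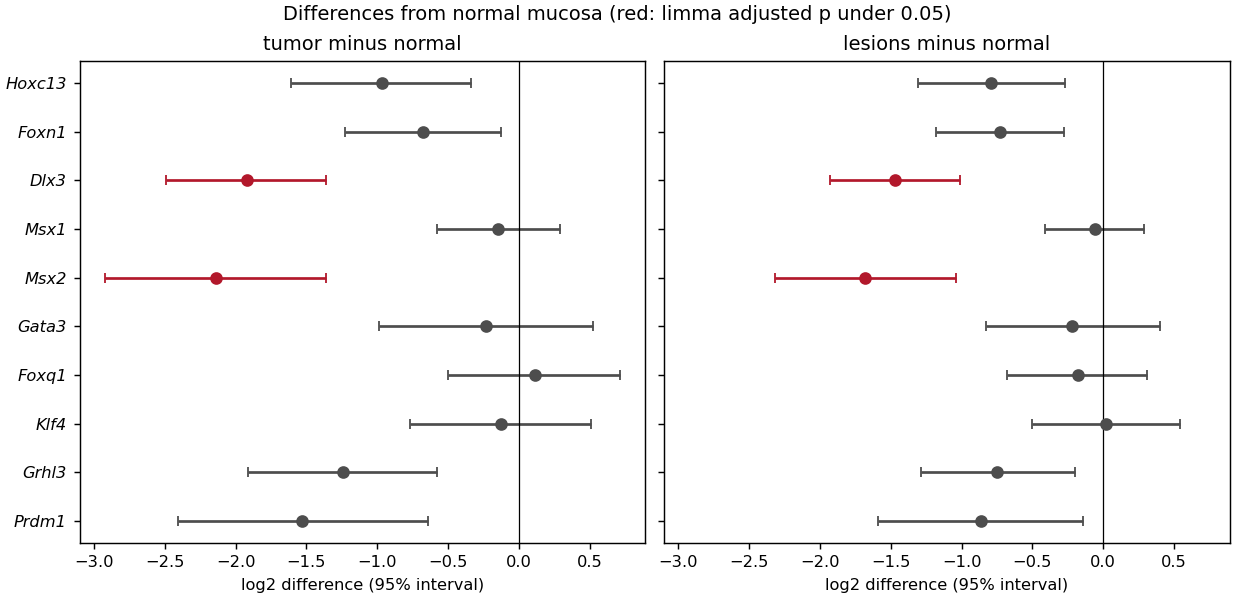
Log2 difference (horizontal axis) of each of the 10 regulators between tumors and normal mucosa (left) and between the mean of the 3 lesion stages and normal mucosa (right), with limma 95% intervals. Red marks an adjusted p under 0.05: Dlx3 at -1.92 and Msx2 at -2.14 in tumors, and -1.47 and -1.68 over all lesions.

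Part of the genes of hard keratinization were lower too. Known targets of HOXC13 and FOXN1 in hair are among them, and no link to these factors was tested. For this and the other gene lists, single genes were not examined with RNA integrity as a covariate. Over all genes that fit called 17 in tumors, against 483 without the covariate. Of 13 hard keratin genes measured, 7 were lower and none higher in tumors, with a median difference of -2.24. Over all genes 1.23% were called lower there. Krt84, a type II hard keratin of filiform papillae and nail, was at 6.71, 5.96 and 9.36 in tumors, against 11.91, 12.06 and 11.44 in normal mucosa (difference -4.46, limma adjusted p = 0.0148). Krt34, a type I hard keratin, was at 3.88, 5.18 and 5.36 in tumors, all below its lowest normal value of 8.01 (difference -4.09, limma adjusted p = 0.0101). Krt36 and Krt87 had differences of -4.25 and -3.97. Of 12 other hair-type products 5 were lower, beside the same share of all genes. Among them were the keratin-associated protein genes Krtap4-2 (-7.85), Krtap13 (-6.75) and Krtap3-1 (-5.86), and Tchh (-4.84), which encodes trichohyalin. Tchh was at 5.42, 5.42 and 10.05 in tumors, against 11.71 to 11.88 in normal mucosa, so its fall was much smaller in tumor 3. Krtap4-2 was at 2.89, 3.20 and 3.46 in all 3 tumors and Krtap13 at 3.10 in tumor 1, close to the signal below which 5% of all probe sets of these arrays lay (3.02 to 3.04), so that their falls can be read only as lower bounds. Products of ordinary cornification were mixed: of 18 genes, Flg (filaggrin, -3.44) and Lor (loricrin, -1.84) were lower and Sprr2d (a small proline-rich protein, 4.48) was higher, with a median of -0.18. In tumor 3 Flg (8.57) and Sprr2d (6.54) lay nearer to normal than in the other tumors. Krtap and Sprr2 genes belong to families of close copies, and their probes may pick up signal of one another.

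The mean of the 13 hard keratin genes was 8.27, 9.24 and 7.83 in normal mucosa, 6.40, 8.06 and 6.40 in hyperplasia, 6.79, 6.16 and 6.35 in dysplasia and 5.66, 5.74 and 6.43 in tumors. Hyperplasia 2 was the only lesion within the normal range, and it was also the only lesion in which Msx2 (7.18) was within it. Hoxc13 and Foxn1 lay below the normal samples there, with 7.06 and 7.99. The mean of 8 fibroblast genes in hyperplasia 2, 8.14, was also within its normal range of 7.86 to 8.20. Hyperplasia 2 was among the 4 samples of lowest RNA integrity. It was also the only hyperplasia sample of 16 weeks, and the others were of 20 weeks. The part of fibroblasts, RNA integrity or week in this pattern was not tested. Over the 12 samples Pearson's r with the hard keratin mean was 0.90 for Dlx3, 0.87 for Msx2, 0.77 for Foxn1, 0.75 for Grhl3, 0.73 for Hoxc13 and 0.69 for Prdm1, and between -0.02 and 0.32 for the other 4. The samples share their stages, and with stage means removed r was 0.53 for Dlx3, 0.51 for Msx2, 0.50 for Foxn1, 0.46 for Klf4, 0.43 for Grhl3, 0.30 for Prdm1, 0.27 for Gata3, 0.23 for Hoxc13, 0.07 for Foxq1 and -0.08 for Msx1. Klf4, whose level overlapped between tumors and normal mucosa, lay close to Dlx3 and Msx2 in this measure. These values are descriptions.

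**Figure D3:**
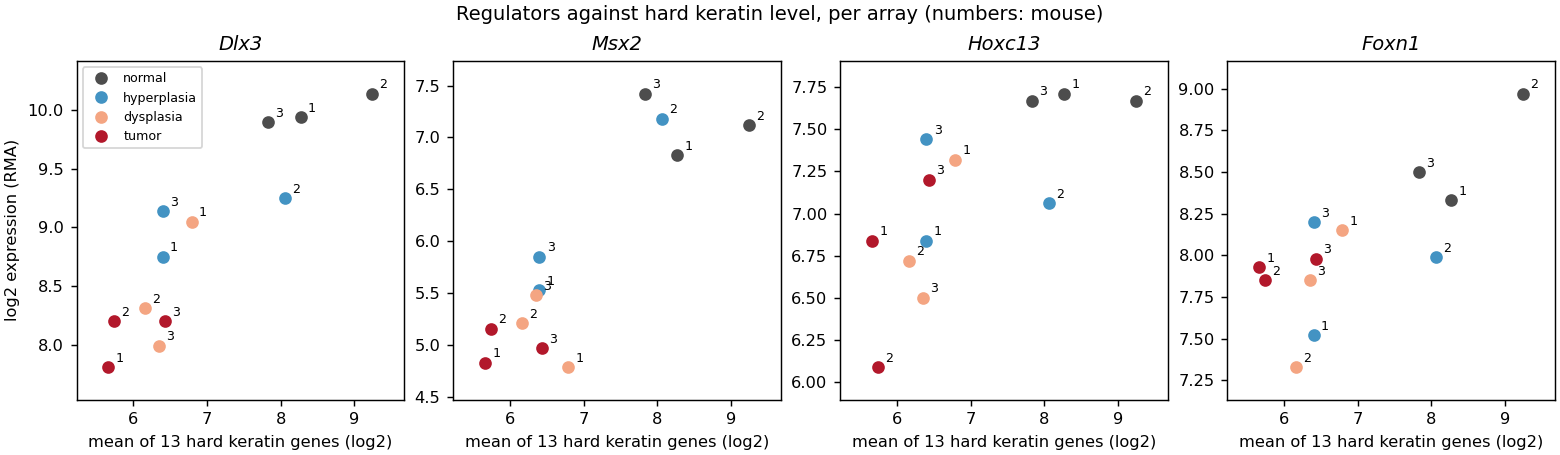
Log2 expression of Dlx3, Msx2, Hoxc13 and Foxn1 (vertical axes, a separate range in each panel) against the mean log2 value of 13 hard keratin genes (horizontal axis), 1 point per mouse with its number, coloured by stage. Hyperplasia 2, at 8.06 for the keratins, lies with the normal samples for Msx2 (7.18) and below them for the other 3 regulators.

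Relatives of these factors and signals upstream of them were also listed. Over all genes 483 of 24477 were called in tumors, a share at which lists of this size hold few or no called genes. The counts of these lists are descriptions. The lists share some genes, Grhl1 among them. None of 11 Hox genes, the other genes of the Hoxc cluster that were listed and the paralogs of Hoxc13, was called in tumors, with a median of -0.08, and Hoxc6 had the largest difference, -0.73 (limma adjusted p = 0.0987). None of 21 relatives in the Fox, Dlx, Msx, Gata, Klf, Grhl and Prdm families was called, and the largest was Dlx6 at 0.88 among those above 0 and Grhl1 at -0.97 among those below. None of 24 other epithelial transcription factors was called, with Pou2f3 at -1.14 (limma adjusted p = 0.151). Of 21 other hair follicle transcription factors, Lef1, which carries WNT signals in hair matrix cells, was lower, with 5.99, 6.19 and 6.59 in tumors against 8.07, 8.11 and 8.45 in normal mucosa (difference -1.95, limma adjusted p = 0.00869). Runx1 was higher, with 7.39, 7.30 and 7.18 in tumors against 5.60, 5.72 and 6.12 in normal mucosa (difference 1.48, limma adjusted p = 0.0107). Of 26 genes of the BMP, WNT, SHH and EDA signals none was called in tumors. Bmp4, a ligand upstream of Msx genes in developing skin and teeth, had -1.32 there (limma adjusted p = 0.0737) and was lower over all lesions, at -1.30 (limma adjusted p = 0.0371).

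**Figure D4:**
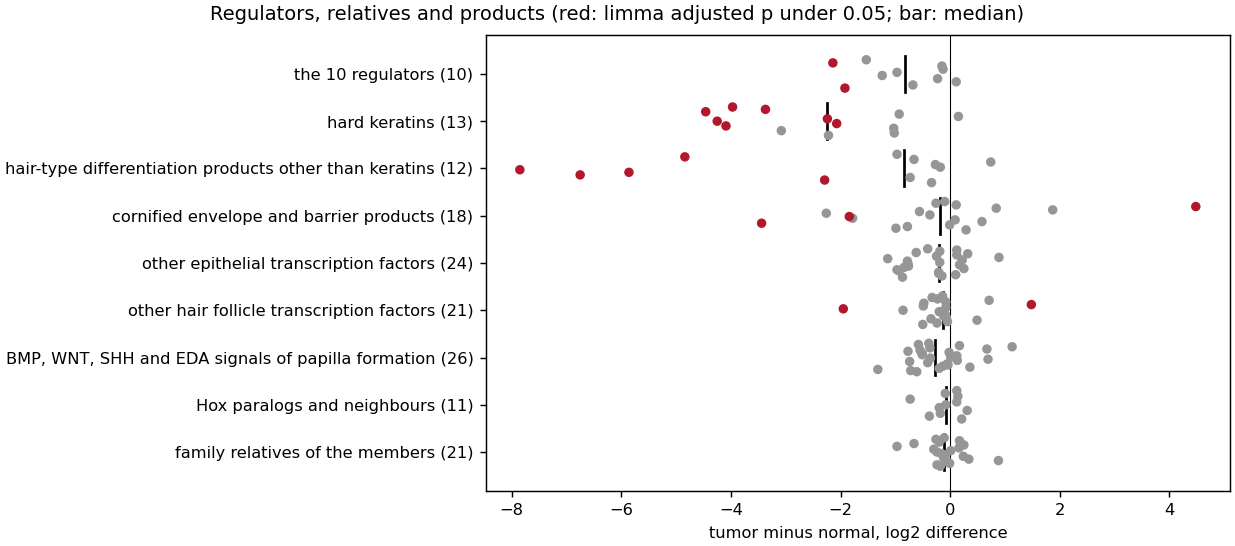
Tumor minus normal log2 difference (horizontal axis) of each gene of the 10 regulators and of 8 gene lists (rows, number of genes measured in parentheses). Points are genes, red where limma's adjusted p is under 0.05, and black bars are medians, -0.82 for the 10 regulators and -2.24 for the hard keratins.

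Among all named genes, those most like Dlx3 over the 12 samples were Abtb2 (r = 0.963), the annexin gene Anxa9 (r = 0.95) and the Notch target Hey1 (r = 0.949). With stage means removed r was 0.843, 0.859 and 0.822. Anxa9 was at 5.42, 6.68 and 6.04 in tumors, against 8.77, 9.05 and 8.24 in normal mucosa, and at 8.03 in dysplasia 1, the dysplasia sample with the highest Dlx3. Those most like Msx2 were Lyg1, a lysozyme-like gene (r = 0.941), Lef1 (r = 0.941) and the hard keratin Krt87 (r = 0.934), with 0.675, 0.765 and 0.743 after stage means were removed. Krt87 was at 8.75 in hyperplasia 2 and at 5.46 and 5.54 in the other hyperplasia samples, and Lyg1 was at 10.85 there and at 6.43 and 4.97 in the others, the same split as Msx2. These genes were picked as the highest of all, so the size of r is no finding. Among the regulators themselves, Dlx3 and Grhl3 had r = 0.86, and 0.91 with stage means removed, while Dlx3 and Msx2 had 0.84, and 0.02 with stage means removed.

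The samples differed in ways other than stage. With RNA integrity as a covariate the differences in tumors, not called, were -1.62 for Dlx3 and -1.91 for Msx2. Without the 4 samples of lowest integrity, normal 1, normal 3, hyperplasia 2 and dysplasia 1, both were called, at -2.07 and -2.13 (limma adjusted p = 0.0258 and 0.0142), but normal 2 was then the sole normal sample, assumed to vary like the samples of the other groups. Of the 8 preparation days, 1 held a tumor and a normal sample, in which Dlx3 was 7.81 in tumor 1 against 10.14 in normal 2 and Msx2 4.83 against 7.12. On another day, Dlx3 averaged 8.20 in tumors 2 and 3 against 9.05 in dysplasia 1, and Msx2 5.06 against 4.79. Hyperplasia samples were prepared on days of their own, and no day held both a dysplasia and a normal sample. Hyperplasia against the other stages and dysplasia against normal mucosa could thus not be compared within a day. In those comparisons day and stage cannot be told apart. The mean of 8 suprabasal keratinocyte genes was between 11.33 and 11.60 in tumors and between 11.23 and 11.34 in normal mucosa. The mean of 12 skeletal muscle genes was between 5.96 and 7.52 in tumors and between 6.55 and 9.93 in normal mucosa, highest in normal 1, and its part in these results was not tested. Dlx3 and Msx2 were called in tumors without normal 1 and dysplasia 1 (difference -1.95 and -2.28, limma adjusted p = 0.0109 and 0.0316). None of the markers of T, NK and B cells, macrophages, taste buds, salivary glands or melanocytes was called in tumors. Of the keratinocyte, endothelial and fibroblast markers, Itga6 (1.68), Krt17 (1.04), Dsg3 (1.29) and Cdh5 (1.33) were higher and Krt4 (-2.97) and Dcn (-3.06) were lower. In dysplasia, where Dlx3 and Msx2 were also called, 2 of the 11 T and NK cell genes were higher, Cd3d (2.94) and Cd3g (2.95), with a median of 1.14 over the 11. Krt17 (0.97) was higher there and Dcn (-3.29) was lower. The mean of the 8 fibroblast genes lay between 6.33 and 7.53 in dysplasia and between 6.96 and 7.40 in tumors. Its range in normal mucosa was higher, 7.86 to 8.20. In hyperplasia it was 7.41, 8.14 and 7.37, within the normal range only in hyperplasia 2. The part of these cells in the Dlx3 and Msx2 results was not tested.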

How the data were processed

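Epithelial cells of 12 mice were measured, 1 array per mouse and 3 mice per stage, with stages taken from the sample labels. The authors made the deposited log2 values by quantile normalization and RMA with 1 probe set per Entrez gene, and the software versions and the genome build behind the probe sets are not given in the sources used here. Of 24479 probe sets, 23281 have 1 symbol in the array annotation and 1198 are unnamed. For 2 symbols that occur on 2 probe sets, the brighter probe set on average was used. Arrays have no counting depth, and their precision is limited by the number of mice and by the signal over background.

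Group differences were fitted as 4 group means over all 12 arrays with lmFit and eBayes of limma 3.58.1 in R 4.3.3 (prior degrees of freedom 4.22, prior SD 0.296, 8 residual degrees of freedom), with Benjamini-Hochberg adjustment over 24477 genes at 0.05. Every adjusted p is two-sided and comes from limma unless another test is named. The fit was tested on simulated data. With 3 mice in each group, the smallest two-sided p of an exact permutation test is 0.1. Correlations, counts and motif matches were computed in Python 3.11.15 with pandas 2.3.3, numpy 2.4.6 and scipy 1.17.1. RNA integrity and preparation day came from the study's table of samples.

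The 10 genes, the gene lists and the tests were chosen with earlier results of these data known. Named genes are the 10 regulators, up to 4 called genes of each list with the largest tumor minus normal difference (the largest 1 where none was called), and the 3 genes most correlated with each called regulator. Dlx6, Krt32, Krt82, Cd3d and Cd3g were named after their values were seen. Alternatives were quantile normalization again, the 30% dimmest probe sets left out, RNA integrity as a covariate, a random block for preparation day (consensus correlation 0.113), the replicate number as a block, an intensity trend, fits of the groups compared alone, the methods' t-test, and each sample left out. Protein sequences and promoters of 3 regulators were not analysed here.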

Additional observations from a re-analysis of the deposited data

How the results depend on the processing

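Dlx3 was lower in tumors with an adjusted p of at most 0.0356 with any 1 sample left out. Over all alternatives its tumor minus normal difference ranged from -2.07 to -1.62 and that of Msx2 from -2.28 to -1.91. With RNA integrity as a covariate 0 regulators were lower in tumors and 0 in dysplasia (limma, adjusted p = 0.0536 for Dlx3 and 0.0784 for Msx2 in dysplasia), 1 was lower over all lesions (Dlx3) and 0 were called among the 4 stages. There Gata3 turned to 0.25 in tumors, and over all lesions Gata3 turned to 0.08, Foxq1 to 0.01 and Klf4 to -0.11. Over all genes 483 were called in tumors, against 17 with that covariate, 140 without normal 2, 721 without dysplasia 1 and 184 without the 4 samples of lowest integrity. The methods' t-test gave 6 regulators lower in tumors unadjusted, where it called 3430 of 24477 genes, and 0 after Benjamini-Hochberg, where it called 1 of all genes. With quantile normalization again 1 regulator was called among the 4 stages and Klf4 turned to -0.03 over all lesions. In a fit of dysplasia and normal mucosa alone 1 regulator, Msx2, was lower. In 2 alternatives chosen after seeing the data, leaving out normal 1 and dysplasia 1 gave 1 regulator lower in dysplasia (Dlx3) and 1 called among the 4 stages, with Msx1 at 0.07 and Klf4 at -0.40 over all lesions, and leaving out the 4 samples of lowest integrity gave 0 called among the 4 stages, with Klf4 at -0.74. That fit keeps 1 normal sample, normal 2, which has the highest Klf4 value and is assumed to vary like the other groups. Calls were also gained: Grhl3 was lower in tumors with quantile normalization again (limma adjusted p = 0.0456), the dimmest 30% left out (0.0411), preparation day as a block (0.0407), the intensity trend (0.0499) and without dysplasia 1, and Prdm1 without dysplasia 1, without dysplasia 3 and without normal 1 and dysplasia 1.

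With 1 sample left out, between 1 and 4 regulators were lower in tumors, between 0 and 2 in dysplasia, between 1 and 3 over all lesions, and between 0 and 2 were called among the 4 stages. In tumors the call of Msx2 was lost without normal 2 or tumor 1. In dysplasia no regulator was called without normal 1, normal 2, dysplasia 2 or dysplasia 3. Differences near 0 changed sign: Foxq1 ranged from -0.01 to 0.22 and Klf4 from -0.51 to 0.23 in tumors, Prdm1 from -0.50 to 0.10 in hyperplasia, and Msx1 from -0.22 to 0.05 and Klf4 from -0.35 to 0.38 over all lesions. With stage means removed r was 0.843 for Dlx3 and Abtb2, 0.822 for Dlx3 and Hey1, 0.675 for Msx2 and Lyg1, 0.765 for Msx2 and Lef1 and 0.743 for Msx2 and Krt87. The replicate numbers do not pair the mice: deviations of same-numbered samples correlated between -0.113 and 0.112 in 18 pairs, over 0.1 in 1. With the replicate number as a block 0 regulators were called among the 4 stages, and Dlx3 and Msx2 were called as before in tumors, in dysplasia and over all lesions. The causes of these changes were not tested.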
